A study of Homo sapiens with 12 samples.

Results

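The comparison described here set PAF1-AID cells after 6 h in auxin against PAF1-AID cells at 0 h. Its members were chosen by their labels and not by any measured value: genotype PAF1-AID OsTIR1 with an auxin time of 0 or 6 h, which gave 4 of the 12 libraries in the series, replicates 3 and 4 at each time. DLD-1 is an established human colorectal adenocarcinoma line, and all the cells used, controls included, made the plant receptor OsTIR1 constitutively. Auxin at 500 µM lets OsTIR1 mark a protein that carries the auxin-inducible degron (AID) for destruction, so PAF1 protein was the target in the 6 h cells. PAF1-AID libraries at 2 h and SPT6-AID OsTIR1 libraries at 0 and 6 h were used to test how the 6 h response differed from theirs. Messenger RNA was selected by its poly(A) tail, so protein levels and RNA without a tail were not followed. The labels do not say whether the line is 1 clone or whether replicate numbers stand for independent cultures. The p-values therefore reflect only how far these libraries differ, which may be technical. No untagged cells in auxin were among the samples, so loss of PAF1 and an effect of auxin itself cannot be told apart.

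PAF1 is a subunit of the PAF1 complex, which binds RNA polymerase II soon after transcription starts and travels with it along the gene. The complex takes part in the release of paused polymerase, helps polymerase through chromatin, and is needed for the ubiquitin mark on histone H2B and the histone methylation that depends on it. It has also been linked to the processing of RNA 3′ ends, to early response genes and to the HOX genes, which set position along the body axis.

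Levels are given in CPM, each library's share of human reads after TMM scaling, a step that makes the typical gene equal between libraries. Differences are log2 fold changes at 6 h against 0 h with a standard error (SE). A gene is called higher or lower where its Benjamini-Hochberg adjusted p from edgeR's quasi-likelihood test, here "edgeR adjusted p", was at most 0.05 over all 20791 human genes tested. The 0 h libraries held 42224100 and 45200038 counts and the 6 h libraries 63485873 and 62264387. The labelled cell type was checked against 19 colorectal epithelial markers, whose summed level was 4444 and 5212 CPM of all human counts at 0 h and 5302 and 5479 CPM at 6 h. EPCAM, KRT8, KRT18 and CDX2 were abundant, while CDX1 was at 0 in the 4 libraries and VIL1, GPA33 and CEACAM5 were under 1 CPM in each. Markers of blood cells summed to 27.5 and 27.4 CPM at 0 h and 39.8 and 37.1 CPM at 6 h, most of it from HBB, with CD3E, MS4A1, HBA2 and NKG7 at 0. Markers of fibroblasts and endothelium summed to 18.2 and 21.1 CPM at 0 h and 19.97 and 21.5 CPM at 6 h, with DCN, LUM, CDH5 and KDR at 0. Transcripts of the 13 protein-coding mitochondrial genes summed to 15448 and 20481 CPM at 0 h and to 29529 and 20919 CPM at 6 h, so 6 h replicate 3 stood apart, and counts without it are given below. The libraries also hold fly reads, and human reads per fly read fell from 24.4 and 21.8 at 0 h to 18.6 and 19.3 at 6 h.

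By 6 h the response was broad. Of the 20791 genes tested, 873 were called higher and 1394 lower, which is 10.9% of all genes in either direction (4.2% higher, 6.7% lower). At least a 2-fold change was seen in 496 of the higher and 671 of the lower genes, and the median log2 fold change was 1.19 among the higher and -0.98 among the lower genes. In all 2267 called genes both 6 h libraries lay beyond both 0 h libraries, an arrangement that 55.1% of all tested genes showed. Where such separation is given below for a called gene, it describes the gene and adds nothing to the call. The scaling bears on the split: with fly totals as library sizes the median of all genes moved from 0.02 to -0.37, 296 genes were called higher and 2865 lower. Rises smaller than that shift are therefore rises relative to the typical gene. The number of calls also rests on few libraries: it was 942 without 0 h replicate 3, 987 without 0 h replicate 4, 362 without 6 h replicate 3 and 1185 without 6 h replicate 4, and 336 genes were called in all 4 of these fits.

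The messenger RNA of PAF1 itself did not pass the test. PAF1 (ENSG00000006712, GRCh38 chromosome 19, 39385852 to 39391195) was at 126 and 131 CPM at 0 h and 116 and 117 CPM at 6 h, a log2 fold change of -0.14 ± 0.12 (edgeR adjusted p = 0.512). The 6 h levels were both below the 0 h levels, by less than the test could call. This does not check depletion, which these data cannot show. Of the 6 subunits of the complex, 1 was called. CTR9, the large scaffold subunit of the complex, was at 74.8 and 78.9 CPM at 0 h and 144 and 136 CPM at 6 h. Both 6 h libraries were higher, with a log2 fold change of 0.87 ± 0.13 (edgeR adjusted p = 0.00352), and CTR9 was called with each of the 4 libraries left out. The other subunits did not pass: CDC73, the product of a parathyroid tumour suppressor gene, was at -0.19 ± 0.18, RTF1 at 0.25 ± 0.16, LEO1 at 0.16 ± 0.15 and WDR61 at 0.31 ± 0.18.

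The steepest rises, ranked over genes that averaged 1 or more in log2 CPM, began from very low levels. PPFIA4, a liprin scaffold protein of neurons (ENSG00000143847, GRCh38 chromosome 1, 203026498 to 203078740), went from 0.936 and 0.321 CPM at 0 h to 11.8 and 7.60 CPM at 6 h, a log2 fold change of 3.95 ± 0.46 (edgeR adjusted p = 0.00179). CYP1A1, a cytochrome P450 induced through the aryl hydrocarbon receptor (GRCh38 chromosome 15, 74719542 to 74725610), went from 3.42 and 5.67 CPM to 68.2 and 64.7 CPM, a log2 fold change of 3.87 ± 0.30 (edgeR adjusted p = 0.000483). These genes were nearly silent or low in both 0 h libraries and several times higher in both 6 h libraries. The next were MIR663AHG, a host gene of a microRNA (3.77 ± 0.66), the non-coding gene AL133477.1 (3.45 ± 0.33), SPEF1, a microtubule protein of cilia (3.16 ± 0.31), and STAB1, a scavenger receptor (2.82 ± 0.39). AC040977.1 (2.77 ± 0.38), LINC00672 (2.64 ± 0.40), SELPLG, the ligand of P-selectin on white blood cells (2.50 ± 0.30), ADAM11 (2.46 ± 0.30), SNAI1, a repressor of epithelial genes (2.45 ± 0.30), and DDN, a dendrite protein (2.35 ± 0.29), completed the 12 largest. SELPLG is itself in the list of blood cell markers, of which 7 were tested, 1 (SELPLG) called and 4 higher in both 6 h libraries than in both 0 h libraries, with a list median of 0.58. CD14 was at 0.345 and 0.324 CPM at 0 h and 0.598 and 0.591 CPM at 6 h, and CD79A at 0.222 and 0.116 and then 0.415 and 0.439 CPM. Not all markers rose: CD8A was at 0.764 and 0.833 CPM at 0 h and 0.614 and 0.760 CPM at 6 h. PTPRC was at 0.0493 and 0.0463 and then 0.0332 and 0.0169 CPM, and LYZ at 0.518 and 0 and then 0.0830 and 0.0169 CPM. CD3E, MS4A1, HBA2 and NKG7 were at 0, and the part of other cells in the rise of SELPLG was not tested. MIR663AHG was the only one of these 12 not called in all 4 of the fits without a 0 h or 6 h library. Of the 5 most abundant genes called higher, CALR, a chaperone of the endoplasmic reticulum, was at 0.59 ± 0.16, FTL, the ferritin light chain, at 0.69 ± 0.20, LMNA, which encodes nuclear lamins, at 0.81 ± 0.22 and CCND1, cyclin D1, at 0.62 ± 0.13. The other of these 5, the mitochondrial ribosomal RNA MT-RNR2, was at 685 and 936 CPM at 0 h and 1945 and 1098 CPM at 6 h, a log2 fold change of 0.91 ± 0.25 (edgeR adjusted p = 0.0411). Its 6 h replicate 3 was far above the other 3 libraries.

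The steepest falls were in genes of moderate level, several of them regulators. ANKRD1, a stress-responsive ankyrin protein and a classic target of YAP (GRCh38 chromosome 10, 90912096 to 90921276), fell from 50.7 and 50.5 CPM at 0 h to 4.82 and 9.49 CPM at 6 h, a log2 fold change of -2.82 ± 0.28 (edgeR adjusted p = 0.00148). IRF2, an interferon regulatory factor (GRCh38 chromosome 4, 184387713 to 184474580), fell from 35.03 and 27.8 CPM to 4.48 and 4.98 CPM, a log2 fold change of -2.73 ± 0.22 (edgeR adjusted p = 0.000483). MAGEF1, which stood at 71.2 and 71.3 CPM at 0 h and 14.05 and 16.1 CPM at 6 h, had the smallest adjusted p of the 12 largest falls (-2.24 ± 0.14, edgeR adjusted p = 0.000134). In each of these genes the 0 h libraries lay close together and far above the 6 h libraries. The others were ZNF624 (-2.78 ± 0.54), KDM8, a histone and protein hydroxylase (-2.40 ± 0.34), SMG9, a cofactor of the SMG1 kinase in nonsense-mediated decay (-2.36 ± 0.30), and RAB23, a small GTPase of Hedgehog signalling (-2.17 ± 0.35). They were followed by ZNF616 (-2.14 ± 0.33), RAD52, a recombination protein (-2.14 ± 0.28), RFXAP, a factor for MHC class II promoters (-2.13 ± 0.24), DDIT3, a stress transcription factor (-2.13 ± 0.27), and ZNF248 (-2.09 ± 0.30). ZNF616 and ZNF624 were each called in 3 of the 4 fits without a library, and the other 10 in all 4. Among the 5 most abundant genes called lower were the exportin XPO1 (-0.47 ± 0.13), the condensin subunit SMC4 (-0.39 ± 0.11), the calmodulin gene CALM2 (-0.50 ± 0.14), the growth factor BMP4 (-0.73 ± 0.17) and the splicing factor SRSF3 (-0.91 ± 0.15).

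**Figure D1:**
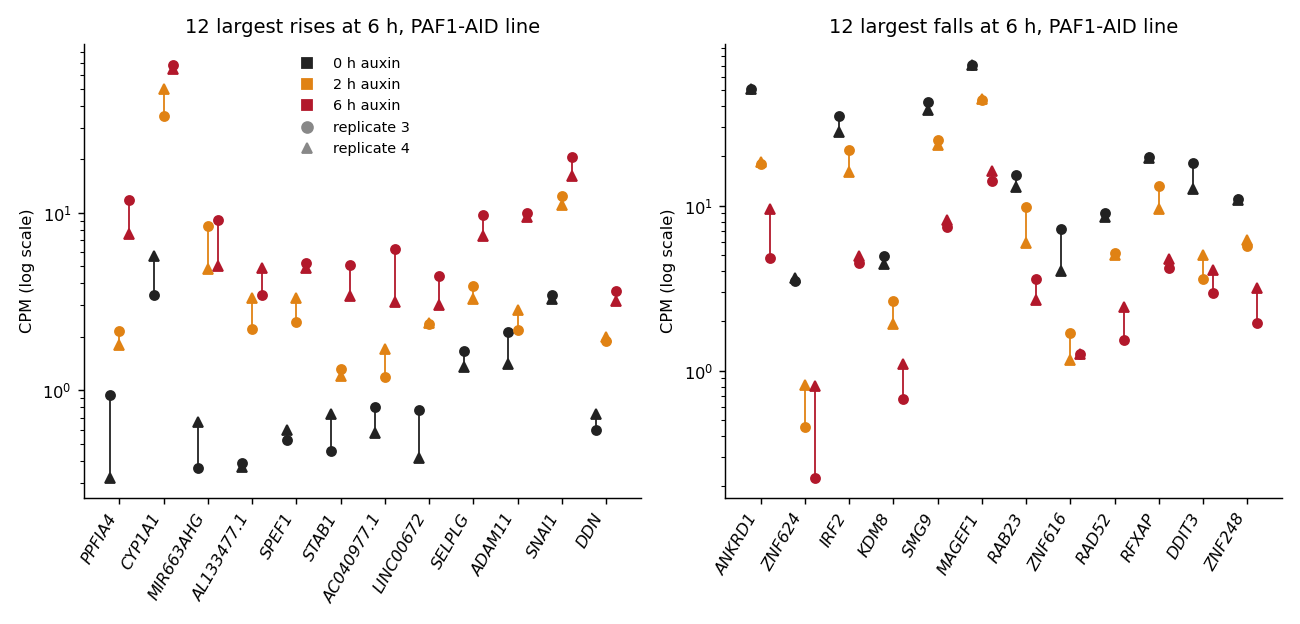
Level in CPM (log axis) of the 12 largest rises (left) and 12 largest falls (right) in each PAF1-AID library, with circles for replicate 3, triangles for replicate 4 and colours for 0, 2 and 6 h of auxin. Only genes with both 6 h points on the same side of both 0 h points could be chosen. PPFIA4 runs from 0.321 and 0.936 CPM at 0 h to 7.60 and 11.8 CPM at 6 h.

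Promoter sequences are shown for 4 genes that moved strongly and whose start regions carry well-known motifs: EGR1, which fell, FOS, which rose, CYP1A1 and ANKRD1. Each is 300 bases on GRCh38.p14 from RefSeq, 250 before and 50 after the start, read 5′ to 3′ on the gene's strand. The capitals in EGR1 (chr5:138465229-138465528, plus strand) mark 2 CArG boxes, the kind of site that serum response factor binds, beginning 105 and 83 bases before the start.
EGR1: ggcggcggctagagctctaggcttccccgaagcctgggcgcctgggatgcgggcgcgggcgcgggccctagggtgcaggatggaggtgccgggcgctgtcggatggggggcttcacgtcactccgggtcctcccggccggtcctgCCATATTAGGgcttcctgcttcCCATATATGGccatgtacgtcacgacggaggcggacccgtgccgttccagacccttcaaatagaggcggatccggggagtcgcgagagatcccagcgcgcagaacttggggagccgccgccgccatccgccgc
In FOS (chr14:75278578-75278877, plus strand) the capitals mark TATAAA, 33 bases before the start, and no CArG box was found in this window. Its unmarked letters include CACGC, which reads GCGTG on the other strand.
FOS: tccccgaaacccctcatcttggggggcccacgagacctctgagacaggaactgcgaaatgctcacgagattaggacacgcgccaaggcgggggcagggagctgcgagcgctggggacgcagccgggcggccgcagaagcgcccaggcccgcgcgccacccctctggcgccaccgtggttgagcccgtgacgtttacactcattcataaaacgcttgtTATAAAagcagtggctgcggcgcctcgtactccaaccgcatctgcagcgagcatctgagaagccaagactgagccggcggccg
In CYP1A1 (chr15:74725479-74725778, minus strand) they mark GCGTG, the core letters of sites for the aryl hydrocarbon receptor, 57 bases before the start, and TATAAA, 32 bases before it.
CYP1A1: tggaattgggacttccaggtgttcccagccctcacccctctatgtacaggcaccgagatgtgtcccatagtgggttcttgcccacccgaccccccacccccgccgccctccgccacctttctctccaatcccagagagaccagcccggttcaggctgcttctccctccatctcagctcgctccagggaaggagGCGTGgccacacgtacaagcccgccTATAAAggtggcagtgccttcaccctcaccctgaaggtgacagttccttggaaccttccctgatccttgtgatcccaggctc
In ANKRD1 (chr10:90921038-90921337, minus strand) they mark GGAATG, the letters of TEAD sites, 220 and 128 bases before the start.
ANKRD1: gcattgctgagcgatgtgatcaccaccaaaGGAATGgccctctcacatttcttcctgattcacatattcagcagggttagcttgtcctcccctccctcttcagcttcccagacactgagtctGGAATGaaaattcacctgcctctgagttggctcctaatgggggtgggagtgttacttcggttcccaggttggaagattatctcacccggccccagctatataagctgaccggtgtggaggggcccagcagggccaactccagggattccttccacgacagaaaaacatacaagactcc
Motifs were searched on both strands in 27305 promoters of the same length. CArG boxes were found in 1.29%, GGAATG in 14.0%, GCGTG in 36.3% and TATAAA in 3264 of them, so the last 3 are common. Of the 11691 tested genes with a promoter in the table, 4.64% were called higher and 9.04% lower. The shares were 4.07% and 10.6% for the 123 with a CArG box, resting on 5 and 13 genes, and 4.85% and 9.01% for the 1298 with GGAATG. They were 4.62% and 9.98% for the 5733 with GCGTG and 8.06% and 7.27% for the 757 with TATAAA.

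Genes are taken below by lists of pathways and families, and members beyond the 4 with the smallest p in a list were named after their values were seen. Early response genes, which cells switch on within minutes of a signal, split into those that rose and those that fell. Of 34 genes in the AP-1, EGR and early response list, 8 were called higher and 5 lower, against 4.2% and 6.7% of all genes, with a list median of 0.04. EGR1, a zinc finger factor of the growth factor response (GRCh38 chromosome 5, 138465490 to 138469315), fell from 116 and 115 CPM at 0 h to 29.5 and 28.5 CPM at 6 h, a log2 fold change of -1.99 ± 0.37 (edgeR adjusted p = 0.00896). Both 6 h libraries lay far below both 0 h libraries. EGR2 and EGR4 fell too, from far lower levels: EGR2 from 1.23 and 0.803 CPM to 0.225 and 0.223 CPM (-2.17 ± 0.48, edgeR adjusted p = 0.0191) and EGR4 from 0.799 and 0.459 CPM to 0.173 and 0.0686 CPM (-2.36 ± 0.66, edgeR adjusted p = 0.0470). EGR3 did not pass the test (-0.97 ± 0.41, edgeR adjusted p = 0.168). The RNA-binding protein gene ZFP36L2 (-0.91 ± 0.16) and the factor KLF6 (-0.77 ± 0.16) were the other 2 called lower.

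Of the AP-1 genes, FOS and JUNB rose. FOS went from 4.70 and 5.28 CPM to 13.4 and 9.20 CPM (1.18 ± 0.21, edgeR adjusted p = 0.00777) and JUNB from 89.7 and 94.9 CPM to 240.1 and 199.97 CPM (1.25 ± 0.16, edgeR adjusted p = 0.00219). Neither gene's 0 h and 6 h libraries overlapped, while FOSL1 (0.44 ± 0.28) and JUN (0.10 ± 0.13) did not pass the test. IER5L (1.81 ± 0.31), GADD45B, a stress sensor (1.48 ± 0.16), GADD45G (0.99 ± 0.21), IER5 (0.98 ± 0.21), PPP1R15A (0.63 ± 0.14) and KLF4 (0.48 ± 0.13) were also called higher. With any 1 of the 4 libraries left out the list had 3 to 8 calls, and with fly totals 3 higher and 8 lower. The 3 called without 6 h replicate 3 were all higher, and JUNB and GADD45B were the 2 genes called in all 4 fits without a library. EGR1, EGR2 and EGR4 were thus not called without that library.

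Feedback genes of ERK signalling had 4 of 21 called higher and 2 lower, against 4.2% and 6.7% of all genes (with any 1 of the 4 libraries left out the list had 3 to 5 calls, and with fly totals 2 higher and 6 lower). HBEGF, a ligand of the EGF receptor, rose from 6.55 and 5.73 CPM to 27.7 and 23.9 CPM (2.07 ± 0.34, edgeR adjusted p = 0.00503). PHLDA2 rose from 65.4 and 74.5 CPM to 226 and 216 CPM (1.66 ± 0.13, edgeR adjusted p = 0.000483). IER3, an early response gene of cell survival, fell from 257 and 224 CPM to 107 and 89.9 CPM (-1.29 ± 0.16, edgeR adjusted p = 0.00219), and the ERK phosphatase DUSP6 was at -0.97 ± 0.17. HBEGF, PHLDA2 and IER3 were called in all 4 fits without a library. DUSP5 (0.52 ± 0.12) and DUSP7 (0.64 ± 0.18) were the other 2 called higher.

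Further signalling lists gave small counts. The shares called were 30.8% of aryl hydrocarbon receptor, 19.2% of YAP and TEAD and 26.1% of WNT genes, against 10.9% of all genes. Of 13 aryl hydrocarbon receptor genes 3 were called higher (2 higher and 1 lower with fly totals): CYP1A1, TIPARP, which represses the receptor (1.36 ± 0.22), and CYP1B1 (1.34 ± 0.35). The receptor gene AHR itself was the 1 called lower, from 143 and 146 CPM to 77.1 and 82.01 CPM (-0.86 ± 0.24, edgeR adjusted p = 0.0440). CYP1A1 and TIPARP were called in all 4 fits without a library, and AHR and CYP1B1 in none of them. Of 26 YAP and TEAD targets and pathway genes 1 was called higher, the matrix protein gene CCN2 (1.23 ± 0.16), and 4 lower: ANKRD1, TGFB2 (-1.29 ± 0.35), LATS1, a kinase that restrains YAP (-0.97 ± 0.22), and NF2 (-0.58 ± 0.12). CCN2 and ANKRD1, both textbook YAP targets, moved in opposite directions and were the 2 of the list called in all 4 fits (with any 1 of the 4 libraries left out the list had 2 to 4 calls, and with fly totals 1 higher and 5 lower). Of 23 WNT targets 2 were called higher and 4 lower, and RNF43, which removes WNT receptors, was the 1 called in all 4 fits (with any 1 of the 4 libraries left out the list had 1 to 4 calls, and with fly totals 0 higher and 6 lower), from 51.7 and 46.9 CPM to 18.97 and 20.9 CPM (-1.31 ± 0.18). AXIN2, a feedback inhibitor of the pathway, was at -0.83 ± 0.20. Of 24 NF-kB factors and feedback targets 0 were called by edgeR's test, DESeq2 or limma-voom, with 1 at an unadjusted p under 0.05 and a median of -0.07.

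HOX and homeobox genes were called lower and none higher. Of 40 tested, 14 were called lower and 0 higher, against 6.7% and 4.2% of all genes, and the list median was -0.38 (-0.78 with fly totals, 15 called lower). At 2 h the list median was already -0.39, with 0 called in either direction. In 23 of the 40 both 6 h libraries were below both 0 h libraries, against 27.1% of all genes. HOXB5, of the anterior to middle body axis, fell from 37.2 and 29.02 CPM at 0 h to 16.7 and 11.3 CPM at 6 h (-1.24 ± 0.22, edgeR adjusted p = 0.00717). HOXB13, a marker of the hindgut and prostate, fell from 12.3 and 12.6 CPM to 5.03 and 5.30 CPM (-1.27 ± 0.22, edgeR adjusted p = 0.00640). HOXA7 fell from 33.7 and 32.5 CPM to 20.6 and 20.6 CPM (-0.68 ± 0.15, edgeR adjusted p = 0.0158). The 6 h pairs lay below the 0 h pairs without overlap. The other HOX genes called lower were HOXA3, HOXA11, HOXB3, HOXC4, HOXC6, HOXC10 and HOXD9, with log2 fold changes of -1.68 (HOXC4) to -0.89 (HOXA11), and they came from all 4 HOX clusters. OTX1 (-1.38 ± 0.31), IRX3 (-0.99 ± 0.22), MEIS2 (-0.80 ± 0.18) and TGIF1 (-0.50 ± 0.13) made up the 14. The calls were weak: without 0 h replicate 3 the count was 1, without 0 h replicate 4 it was 6, without 6 h replicate 3 it was 1 and without 6 h replicate 4 it was 3.

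Repair genes were tested as a list of recombination, Fanconi and checkpoint factors. Of 47 such genes 15 were called lower and 0 higher, against 6.7% and 4.2% of all genes, with a list median of -0.43 (-0.81 with fly totals). In 30 of them both 6 h libraries were below both 0 h libraries, against 27.1% of all genes. RAD52, which anneals single strands, fell from 8.97 and 8.58 CPM to 1.54 and 2.44 CPM (-2.14 ± 0.28, edgeR adjusted p = 0.00220). ETAA1, an activator of the ATR checkpoint kinase, fell from 28.96 and 28.1 CPM to 6.19 and 8.27 CPM (-1.98 ± 0.24, edgeR adjusted p = 0.00201). BRCA2, a mediator of homologous recombination, fell from 69.2 and 69.6 CPM to 25.3 and 31.7 CPM (-1.29 ± 0.18, edgeR adjusted p = 0.00286). In all of them both 6 h libraries lay well below both 0 h libraries. RAD17 (-1.23 ± 0.14), RAD54L (-1.11 ± 0.15) and PALB2 (-1.25 ± 0.19), the partner of BRCA2, fell as well. These 6 genes were the ones called in all 4 fits without a library, and with any 1 of the 4 libraries left out the list had 6 to 13 calls, and with fly totals 0 higher and 25 lower. FANCF, RAD54B, ATRIP, BRIP1, FANCM, SLX4, FANCE, BRCA1 and CHEK1 were the other 9, from -1.30 (FANCF) to -0.63 (CHEK1).

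Cell cycle genes were taken in several lists. Calls made up 25.5% of mitosis, 15.9% of replication and 25.9% of cyclin D and related genes, against 10.9% of all genes. Of 51 mitosis and kinetochore genes 13 were called lower and 0 higher, against 6.7% and 4.2% of all genes (median -0.22, 28 lower with fly totals). Of 44 DNA replication genes 7 were called lower and 0 higher (median 0.07, or -0.30 and 14 lower with fly totals). CENPA, the histone H3 variant of centromeres, fell from 32.6 and 33.4 CPM to 11.3 and 14.5 CPM (-1.36 ± 0.19, edgeR adjusted p = 0.00270). GINS1, a subunit of the replicative helicase, fell from 74.4 and 68.03 CPM to 23.2 and 27.4 CPM (-1.49 ± 0.18, edgeR adjusted p = 0.00191). Each pair was apart from the other. SGO1 (-1.14 ± 0.21), AURKA (-1.12 ± 0.21), CENPE (-1.08 ± 0.18) and POLD3 (-1.02 ± 0.16) also fell. CENPA and GINS1 were called in all 4 fits, and with any 1 of the 4 libraries left out the mitosis list had 1 to 8 calls and the replication list 1 to 6. Of 27 cyclin D, CDK inhibitor and related genes 3 were called higher and 4 lower, and with any 1 of the 4 libraries left out the list had 1 to 4 calls, and with fly totals 0 higher and 6 lower. CDKN1A, the inhibitor p21, was at 1.06 ± 0.22, CCNE1 at 0.81 ± 0.22, CCNE2 at -1.28 ± 0.34, E2F2 at -0.92 ± 0.17 and E2F5, which was called in all 4 fits, at -1.08 ± 0.16.

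The machinery of transcription was itself affected, with different parts moving in different directions. Of 34 pausing and elongation factors 5 were called higher and 6 lower, which is 32.4% called against 10.9% of all genes. The list median was 0.24 (-0.15 with fly totals). MEPCE, which caps the 7SK RNA that holds P-TEFb inactive, fell from 48.8 and 53.5 CPM to 23.9 and 24.2 CPM (-1.09 ± 0.17, edgeR adjusted p = 0.00383). LARP7 (-0.77 ± 0.13) and HEXIM1 (-0.58 ± 0.16), the other proteins of that inhibitory particle, were called lower as well. CDK9, the kinase of P-TEFb, was called higher, from 79.9 and 76.8 CPM to 114 and 124 CPM (0.60 ± 0.14, edgeR adjusted p = 0.0255), and its cyclin CCNT2 was at 0.53 ± 0.14. The 7SK proteins fell while the kinase they hold rose relative to the typical gene. With fly totals CDK9 was at 0.21 and CCNT2 at 0.13, and CDK9, CCNT2 and HEXIM1 were called in 0 of the 4 fits without a library.

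SPTY2D1, a histone chaperone, rose from 55.8 and 58.5 CPM to 137 and 115 CPM (1.14 ± 0.13, edgeR adjusted p = 0.00183), and EAF1, a partner of the ELL elongation factors, rose by 0.79. SUPT6H, which encodes SPT6, was at 0.42 ± 0.11. IWS1, a partner of SPT6, fell from 80.99 and 86.5 CPM to 29.7 and 42.9 CPM (-1.21 ± 0.19, edgeR adjusted p = 0.00432), and CDK12 (-0.80 ± 0.16) and MLLT3 (-0.39 ± 0.11) were also called lower. SPTY2D1, EAF1 and MEPCE were the 3 factors called in all 4 fits, and with any 1 of the 4 libraries left out the list had 3 to 6 calls, and with fly totals 1 higher and 6 lower.

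Termination and 3′ end factors mostly fell among those called: 9 of 29 lower and 2 higher, with a median of 0.04. That is 37.9% called against 10.9% of all genes. PPP1R10, which brings a phosphatase to polymerase at termination, fell from 100.2 and 92.1 CPM to 21.9 and 31.8 CPM (-1.84 ± 0.20, edgeR adjusted p = 0.00176). WDR82, its partner in that complex, fell from 185 and 192 CPM to 73.3 and 80.7 CPM (-1.29 ± 0.19, edgeR adjusted p = 0.00307). The anti-terminator SCAF8 fell from 50.5 and 48.5 CPM to 20.8 and 23.1 CPM (-1.17 ± 0.13, edgeR adjusted p = 0.00176), while its relative SCAF4 was called higher at 0.66 ± 0.15. Each of the 3 falls left the 6 h libraries well under the 0 h libraries. ZC3H4, which restricts non-coding transcription with WDR82, was at -1.62 ± 0.28, CSTF1 at -1.62 ± 0.25, PCF11 at -0.78 ± 0.15, PAPOLG at -0.62 ± 0.18, CPSF2 at -0.51 ± 0.14 and CPSF7 at -0.45 ± 0.12, and CPSF6 was called higher at 0.57 ± 0.12. PPP1R10, WDR82 and SCAF8 were the ones called in all 4 fits, and with any 1 of the 4 libraries left out the list had 3 to 8 calls, and with fly totals 0 higher and 11 lower.

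Of 59 genes for polymerase II, general factors, Mediator and Integrator, 3 were called higher and 12 lower, with a median of -0.09. That is 25.4% called against 10.9% of all genes. GTF2A1, a subunit of TFIIA, fell from 90.6 and 64.98 CPM to 25.1 and 25.1 CPM (-1.63 ± 0.19, edgeR adjusted p = 0.00178). INTS6, a subunit of Integrator, which cuts short transcripts at paused polymerase, fell from 15.3 and 16.4 CPM to 4.01 and 5.41 CPM (-1.75 ± 0.21, edgeR adjusted p = 0.00191). GTF2E1, a subunit of TFIIE, was at -1.57 ± 0.22 (edgeR adjusted p = 0.00279). These 3 were called in all 4 fits. INTS2 (-1.16 ± 0.18), INTS7, INTS14 and INTS3 were also called lower and INTS1 higher (0.49 ± 0.13), as were MED26, a Mediator subunit that contacts elongation factors (0.98 ± 0.17), and POLR2C (0.62 ± 0.14). With any 1 of the 4 libraries left out the list had 4 to 11 calls, and with fly totals 0 higher and 23 lower.

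Of 32 genes for H2B ubiquitylation and elongation-linked methylation, the histone marks tied to the complex, 2 were called higher and 2 lower (median -0.13), which is 12.5% against 10.9% of all genes. UBE2B, an E2 enzyme of H2B ubiquitylation, fell from 52.6 and 53.1 CPM to 31.1 and 30.4 CPM (-0.78 ± 0.13, edgeR adjusted p = 0.00592). KDM8, in this list too, was the 1 member called in all 4 fits (with any 1 of the 4 libraries left out the list had 1 to 2 calls, and with fly totals 0 higher and 9 lower). The histone demethylase KDM5B (0.83 ± 0.20) and CXXC1, of the H3K4 methylation complexes (0.40 ± 0.11), were called higher. Of 43 polycomb and remodelling genes 1 was called higher and 6 lower, which is 16.3% called against 10.9% of all genes. PHC3 (-1.34 ± 0.25), SRCAP (-1.03 ± 0.19), PCGF1 (-0.97 ± 0.16), EZH1 (-0.95 ± 0.20), PCGF3 (-0.87 ± 0.22) and KAT5 (-0.86 ± 0.15) were the 6 lower and were not called without 6 h replicate 3, and with any 1 of the 4 libraries left out the list had 1 to 7 calls, and with fly totals 1 higher and 11 lower.

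RNA processing genes split by family member. Among splicing kinases and SR proteins 23.7% were called, against 10.9% of all genes. Of 38 splicing kinases and SR proteins 2 were called higher and 7 lower (with any 1 of the 4 libraries left out the list had 3 to 7 calls, and with fly totals 0 higher and 14 lower), with a median of -0.09. RBM39 fell from 242 and 252 CPM to 118 and 119.9 CPM (-1.05 ± 0.11, edgeR adjusted p = 0.00176) and PRPF38B from 113 and 104 CPM to 34.3 and 33.6 CPM (-1.68 ± 0.20, edgeR adjusted p = 0.00188). CLK3, a kinase of SR proteins, rose from 55.6 and 59.04 CPM to 114 and 102 CPM (0.91 ± 0.11, edgeR adjusted p = 0.00187), while its relative CLK4 fell (-1.24 ± 0.18). SRSF5 (0.76 ± 0.14) was called higher and SRSF3, SRSF10 (-0.68 ± 0.11) and SRSF1 (-0.47 ± 0.11) lower. RBM39, PRPF38B and CLK3 were called in all 4 fits without a library. The mRNA export receptor gene NXF1, singled out after its values were seen, rose from 86.4 and 85.2 CPM to 398 and 333 CPM (2.09 ± 0.13, edgeR adjusted p = 0.000134). RSRP1, an arginine and serine rich protein gene chosen in the same way, rose from 53.2 and 36.6 CPM to 214 and 152 CPM (2.03 ± 0.23, edgeR adjusted p = 0.00176), and both were called in all 4 fits.

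Nonsense-mediated decay factors, which clear faulty messages, gave 3 of 18 called higher and 2 lower, which is 27.8% called against 10.9% of all genes. SMG9 fell from 42.4 and 37.9 CPM to 7.46 and 8.19 CPM (edgeR adjusted p = 0.00219), whereas its partner SMG8 was called higher, from 28.96 and 28.6 CPM to 50.3 and 40.7 CPM (0.66 ± 0.16, edgeR adjusted p = 0.0278). EIF4A3, which marks exon junctions, rose from 216 and 267 CPM to 510.2 and 581 CPM (1.18 ± 0.14, edgeR adjusted p = 0.00179). SMG9 and EIF4A3 were the 2 called in all 4 fits, and with any 1 of the 4 libraries left out the list had 2 to 4 calls, and with fly totals 1 higher and 3 lower. DHX34 (-0.64 ± 0.14) and NBAS (0.50 ± 0.14) were the remaining 2.

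Most genes of the stress pathways were not called. In 15 of 24 heat shock genes both 6 h libraries were above both 0 h libraries and in 3 below, against 28.1% and 27.1% of all genes. These counts were 11 and 2 of 23 NRF2 genes, and 10 and 7 in both the ATF4 and the p53 list. List medians were 0.20 for heat shock and 0.16 for NRF2 genes, or -0.19 and -0.23 with fly totals. Calls made up 14.8% of ATF4, 16.7% of heat shock, 14.8% of p53 and 13% of NRF2 genes, against 10.9% of all genes. Of 27 ATF4 and unfolded protein stress genes 1 was called higher and 3 lower, and the 2 genes called in all 4 fits (with any 1 of the 4 libraries left out the list had 2 to 3 calls, and with fly totals 0 higher and 6 lower) were transcription factors of the pathway. ATF4 fell from 324 and 294 CPM to 119 and 92.2 CPM (-1.55 ± 0.24, edgeR adjusted p = 0.00412) and DDIT3 from 18.2 and 12.5 CPM to 2.97 and 4.07 CPM. In both genes the 6 h libraries lay far below the 0 h libraries. DDIT4 (-1.33 ± 0.33) was the third gene called lower and DNAJB9 (0.72 ± 0.18) the 1 higher. Of 24 heat shock genes 4 were called higher and 0 lower, but 0 higher and 3 lower with fly totals and 0 without 6 h replicate 3. HSPA1A was at 1.12 ± 0.24 and HSPA1B at 1.43 ± 0.34, 2 nearly identical genes whose reads may be shared. DNAJB1 (0.62 ± 0.15) and HSPA1L (0.57 ± 0.15) were the others. Of 27 p53 target genes 4 were called higher and 0 lower, but 1 higher and 4 lower with fly totals and 0 without 6 h replicate 3: PMAIP1 (0.96 ± 0.21), CDKN1A, TIGAR (1.16 ± 0.30) and SPATA18, at 0.0685 and 0.0229 CPM at 0 h and 0.778 and 0.429 CPM at 6 h (3.65 ± 0.84). Of 23 NRF2 antioxidant genes 2 were called higher and 1 lower, and with any 1 of the 4 libraries left out the list had 0 to 1 calls, and with fly totals 0 higher and 2 lower.

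Cell death genes had 3 of 25 called higher and 3 lower, which is 24% called against 10.9% of all genes. BCL2L11, which encodes the death activator BIM, rose from 23.9 and 25.9 CPM to 54.8 and 56.3 CPM (1.16 ± 0.18, edgeR adjusted p = 0.00405). MCL1, a survival protein that BIM binds, rose from 218 and 228 CPM to 429 and 407 CPM (0.91 ± 0.18, edgeR adjusted p = 0.0109). A protector and an activator of cell death were thus both higher in each 6 h library. CASP8 (-0.82 ± 0.13), APAF1 (-0.99 ± 0.25) and CASP9 (-0.66 ± 0.17), of the caspase machinery, were called lower. BCL2L11 was the 1 member called in all 4 fits, and with any 1 of the 4 libraries left out the list had 1 to 4 calls, and with fly totals 1 higher and 8 lower. Of 40 lysosome and autophagy genes 6 were called higher and 1 lower, against 4.2% and 6.7% of all genes, with a median of 0.22 (-0.16 with fly totals). MAP1LC3B, the membrane mark of autophagosomes, rose from 73.8 and 76.9 CPM to 191 and 158 CPM (1.21 ± 0.14, edgeR adjusted p = 0.00176) and was the 1 called in all 4 fits, while with any 1 of the 4 libraries left out the list had 1 to 4 calls, and with fly totals 1 higher and 1 lower. ATG16L1 (0.70 ± 0.12), ATG14 (0.60 ± 0.17), ATG13 (0.56 ± 0.12), ATP6V0D1 (0.55 ± 0.14) and LAMP2 (0.37 ± 0.10) were higher and ATG5 (-0.42 ± 0.11) lower.

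Epithelial genes were taken in a pair of lists. Calls made up 17.6% of colorectal markers, 29.2% of epithelial to mesenchymal regulators and 20% of TGF-beta and BMP genes, against 10.9% of all genes. Of 17 tested colorectal epithelial markers 3 were called higher and 0 lower, with a median of 0.19, and in 9 both 6 h libraries were above both 0 h libraries, against 28.1% of all genes (2 called higher and 1 lower with fly totals). Of 24 epithelial to mesenchymal regulators 5 were called higher and 2 lower (with any 1 of the 4 libraries left out the list had 3 to 4 calls, and with fly totals 3 higher and 4 lower). SNAI1 rose from 3.42 and 3.26 CPM to 20.6 and 15.99 CPM (edgeR adjusted p = 0.00199). GRHL2, which maintains epithelial genes, fell from 70.5 and 81.6 CPM to 16.9 and 22.7 CPM (-1.94 ± 0.22, edgeR adjusted p = 0.00176). ELF3, an epithelial transcription factor, rose from 43.4 and 37.1 CPM to 88.1 and 75.8 CPM (1.02 ± 0.14, edgeR adjusted p = 0.00279). These 3 were called in all 4 fits. CDX2, the intestinal master factor (0.75 ± 0.18), and the tight junction gene CLDN4 (0.65 ± 0.16) were higher, as was LGALS4, a gut galectin at 0.160 and 0.0917 CPM at 0 h and 0.605 and 0.549 CPM at 6 h (2.18 ± 0.43), and CLDN1 lower (-0.75 ± 0.17). CDH1, which encodes E-cadherin, was at 0.42 ± 0.13 (edgeR adjusted p = 0.0712). Of 32 interferon regulatory factors and response genes 3 were called higher and 1 lower, which is 12.5% called against 10.9% of all genes. Among the higher, IRF1 was at 0.91 ± 0.19 and IFI27 at 2.05 ± 0.36, against the fall of IRF2, the 1 called in all 4 fits (with any 1 of the 4 libraries left out the list had 1 to 4 calls, and with fly totals 1 higher and 5 lower). Of 20 TGF-beta and BMP response genes 3 were called higher and 1 lower (with any 1 of the 4 libraries left out the list had 0 to 2 calls, and with fly totals 0 higher and 1 lower), with BAMBI, a decoy receptor, at 1.21 ± 0.23.

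Zinc finger ZNF genes, the largest family of repressors, had 70 of 357 called lower and 19 higher (median -0.22), against 6.7% and 4.2% of all genes. At 2 h the list median was already -0.29, with 1 called higher and 2 lower. With any 1 of the 4 libraries left out the list had 17 to 47 calls, and with fly totals 4 higher and 114 lower. The fewest calls were without 6 h replicate 3. ZNF518A fell from 126 and 93.6 CPM to 36.7 and 36.5 CPM (-1.59 ± 0.19, edgeR adjusted p = 0.00185) and ZNF574 rose from 27.1 and 29.96 CPM to 61.1 and 56.6 CPM (1.04 ± 0.12, edgeR adjusted p = 0.00176). Both were called in all 4 fits.

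Some smaller lists completed the picture. The shares called were 9.09% of glycolysis, 15.9% of cilium, 10.8% of synaptic, 9.09% of clock and 18.5% of host genes, against 10.9% of all genes. Of 33 glycolysis and hypoxia genes 3 were called higher and 0 lower: PPFIA4, the peptide hormone gene ADM (1.33 ± 0.20) and NDRG1 (0.56 ± 0.13), with 1 lower and 2 higher with fly totals. Of 44 cilium and Hedgehog genes 2 were called higher, among them SPEF1, and 5 lower, among them RAB23 and the centrosomal gene CEP290 (-0.84 ± 0.19). PPFIA4, ADM, SPEF1 and RAB23 were called in all 4 fits, and with any 1 of the 4 libraries left out the list had 4 to 6 calls, and with fly totals 2 higher and 9 lower. Of 37 synaptic and neuronal genes 3 were called higher, PPFIA4, ADAM11 and VAMP1 (1.67 ± 0.30), and 1 lower, RAB3A (-1.26 ± 0.32), or 3 higher and 2 lower with fly totals. Of 22 clock genes 2 were called lower, RORA (-1.03 ± 0.17) and CLOCK (-0.93 ± 0.23), and with any 1 of the 4 libraries left out the list had 0 to 2 calls, and with fly totals 0 higher and 2 lower. Of 27 hosts of small nucleolar RNAs 1 was called higher and 4 lower, and with any 1 of the 4 libraries left out the list had 0 to 2 calls, and with fly totals 0 higher and 7 lower. Of 335 LINC genes 12 were called higher and 8 lower, or 6 higher and 20 lower with fly totals, a share of 5.97% against 10.9% of all genes.

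Housekeeping lists are given last. Of 87 cytosolic ribosomal protein genes 1 was called, RPL7L1 (-0.72 ± 0.12, edgeR adjusted p = 0.00575), a paralog that is not itself a core subunit, and the list median was 0.15 (-0.23 with fly totals). Of 69 nuclear oxidative phosphorylation genes 1 was called higher, NDUFA2 (0.59 ± 0.13), and the median was 0.14 (-0.24 with fly totals). Of 32 cholesterol and fatty acid synthesis genes 1 was called higher, FASN (0.64 ± 0.13), and 1 lower, HSD17B7 (-0.84 ± 0.17), or 0 higher and 2 lower with fly totals. Of the 13 mitochondrially encoded genes 0 were called by edgeR or limma-voom and 6 by DESeq2, with 10 at an unadjusted p under 0.05 and a median of 0.67 (0.30 with fly totals), although in 12 of them both 6 h libraries were above both 0 h libraries, against 28.1% of all genes. MT-CYB shows the spread: it was at 783 and 1287 CPM at 0 h and 2133 and 1417 CPM at 6 h (0.78 ± 0.24, edgeR adjusted p = 0.0641). Of 47 replication-dependent histone genes, whose mRNA has no poly(A) tail and is poorly caught by the selection, 0 were called by edgeR, DESeq2 or limma-voom, with 1 at an unadjusted p under 0.05. Ribosome biogenesis genes had 1 of 52 called higher, RRP8 (1.14 ± 0.17), and 6 lower, among them UTP15 (-1.38 ± 0.18), which is 13.5% called against 10.9% of all genes. RRP8 and UTP15 were the 2 called in all 4 fits, and with any 1 of the 4 libraries left out the list had 2 to 5 calls, and with fly totals 1 higher and 14 lower.

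**Figure D2:**
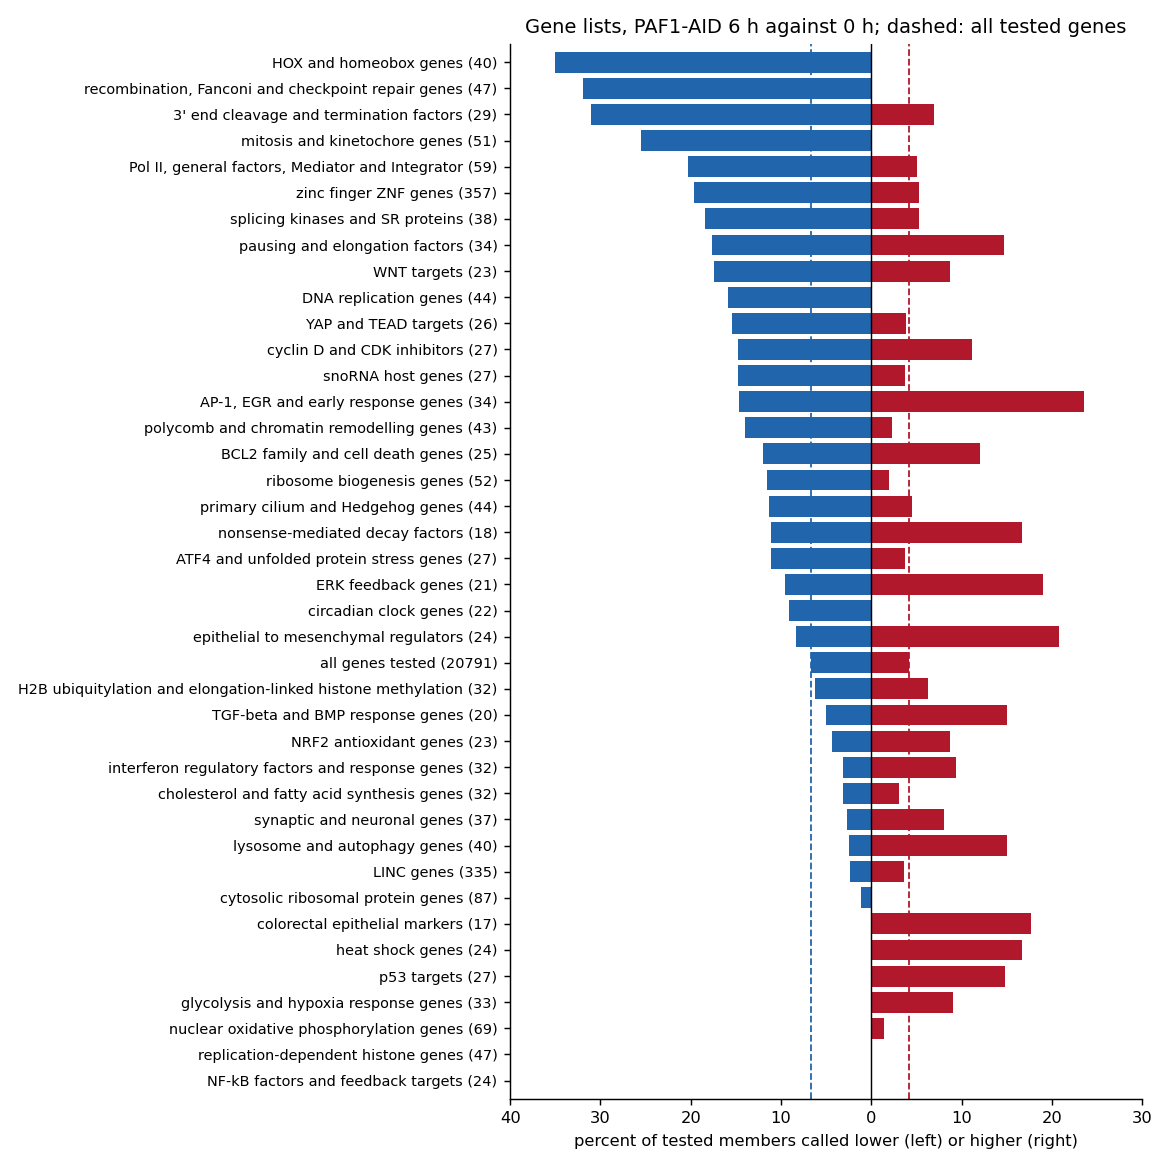
Percent of tested members called lower (left, blue) and higher (right, red) in each gene list of 15 or more genes, with the number tested in brackets and dashed lines at 6.7% and 4.2%, the shares of all genes tested. HOX and homeobox genes head the lower side at 35.0%, with 0 called higher, and early response genes reach both sides.

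Gene type, size and level went with the calls. Of 13663 protein-coding genes tested 4.82% were called higher and 8.96% lower, of 1139 lincRNA genes 4.57% and 3.34%, and of 2770 processed pseudogenes 0.758% and 1.01%. Among protein-coding genes under 5 kb 6.7% were called higher and 6.62% lower. The share called higher declined with span to 2.03% at 200 to 400 kb and to 0 of 261 genes at 400 kb or more. The share called lower was greatest at 50 to 100 kb, at 10.8%, and was 5.36% at 400 kb or more. Medians differed little, from 0.07 in the shortest to -0.07 in the longest group. By level at 0 h, 13.5% of protein-coding genes at 16 to 64 CPM were called lower, against 3.3% in the most abundant group, and 9.27% of those under 1 CPM were called higher. Grouping by the 0 h level uses libraries of the contrast, which favours rises in the lowest group. So does the filter on low counts, which a gene low at 0 h could pass through 6 h libraries alone. By G and C content of the 300 bases around the start, 12.7% of genes at 50% to 60% were called lower and 2.65% of those at 80% or more.

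Near-silent genes, those under 1 CPM at 0 h, were called higher more often within 30 kb of an expressed gene's end than at 100 kb or more. Where an expressed gene (at least 10 CPM at 0 h) ended less than 5 kb upstream on the same strand, 15.7% of 477 near-silent genes were called higher, with a median log2 fold change of 0.73. The share was 16.2% at 5 to 10 kb, 11.4% at 10 to 30 kb, 5.68% at 30 to 100 kb and 2.08% of 3276 genes at 100 kb or more, where the median was 0.03. Both replicates gave the order, with medians from 0.44 to -0.01 in replicate 3 and from 0.68 to 0.08 in replicate 4. With fly totals the medians were 0.32 and -0.36. For an expressed gene downstream on the same strand the shares ran from 8.7% under 5 kb to 5.28% at 100 kb or more (medians of 0.53 and 0.13), and for one on the other strand from 5.57% to 5.2%. Near-silent genes were chosen by a low level at 0 h in libraries of the contrast, which favours rises. A gene low at 0 h could also pass the filter on low counts through 6 h libraries alone, which favours rises too. Whether these choices act equally at every distance was not tested. Over the 0 h and 6 h libraries together, so with the rise included, the median level was 0.378 CPM under 5 kb and 0.274 CPM at 30 to 100 kb. The SPT6-AID line showed a like order at 6 h, 30.6% under 5 kb and 13.4% at 100 kb or more.

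**Figure D3:**
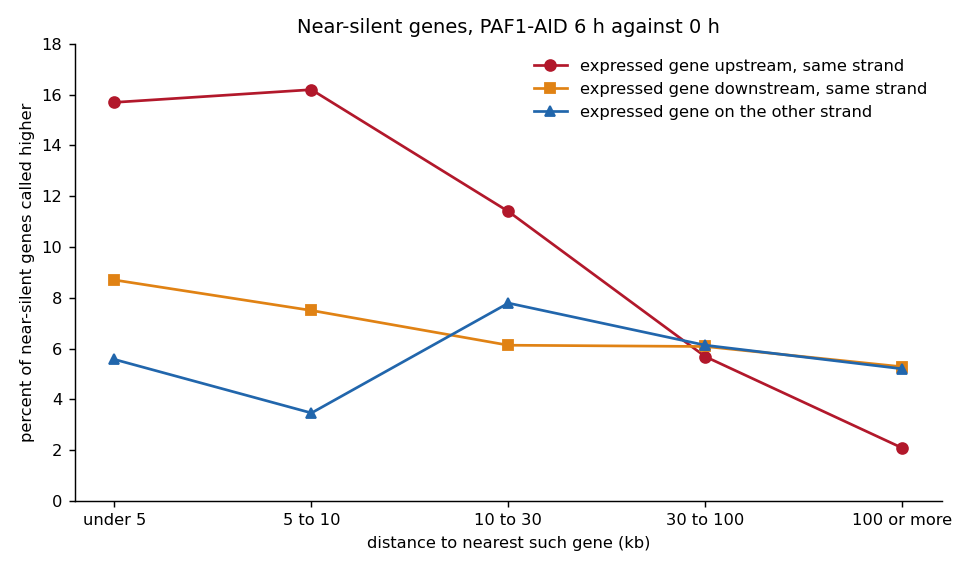
Percent of near-silent genes (under 1 CPM at 0 h) called higher at 6 h, by distance in kb to the nearest expressed gene that lies upstream on the same strand (circles), downstream on the same strand (squares) or on the other strand (triangles). The upstream, same-strand line falls from 15.7% under 5 kb to 2.08% at 100 kb or more, and the other 2 lines stay between 3.46% and 8.7%.

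Of the 12 steepest rises 11 had a position in the annotation used, all but AL133477.1, and each of the 11 had an expressed gene upstream on the same strand. In 6 of the 11 it ended less than 10 kb away, as it did for 12.8% of 20380 tested genes and 13.5% of 5761 near-silent genes. The 12 were chosen by their rise, so their share is a description. PPFIA4 begins 1.65 kb beyond the end of TMEM183A, STAB1 2.27 kb beyond NISCH, SPEF1 2.40 kb beyond CENPB, DDN 2.97 kb beyond PRKAG1, LINC00672 3.40 kb beyond LASP1 and ADAM11 6.77 kb beyond DBF4B. None of these 6 upstream genes was called by edgeR: their log2 fold changes ran from -0.35 (PRKAG1) to 0.41 (TMEM183A), with adjusted p from 0.063 to 0.839. The other 5 lie further off: SELPLG 11.2 kb beyond CORO1C, SNAI1 29.1 kb beyond RNF114, CYP1A1 110.5 kb beyond ULK3, AC040977.1 230.2 kb beyond DVL2 and MIR663AHG 5413 kb beyond BCL2L1. Counts per gene do not show where a read's transcript began, and the strand setting of the counting is not given in the sources used here.

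The 6 h response was compared with the 2 h response of the same cells by testing 6 h against 2 h directly. At 2 h 14 genes were called higher (0.0673%) and 17 lower (0.0818%) against the same 0 h libraries, 0.149% in all. Between 2 and 6 h 182 genes were called, 60 higher and 122 lower (0.289% and 0.587%, or 0.875% in all). IRF2 stood at 21.6 and 15.9 CPM at 2 h and 4.48 and 4.98 CPM at 6 h, a log2 difference of -1.99 ± 0.21 (edgeR adjusted p = 0.0152). SMG9 stood at 24.8 and 23.3 CPM and then 7.46 and 8.19 CPM (-1.62 ± 0.30, edgeR adjusted p = 0.0412), and MAGEF1 at 43.5 and 43.9 CPM and then 14.05 and 16.1 CPM (-1.53 ± 0.14, edgeR adjusted p = 0.00845). In each of the 3 genes both 6 h libraries lay below both 2 h libraries. Largest changes were ranked only over genes whose 2 h and 6 h libraries did not overlap, so the choice set that separation. LRRC20 (-1.62 ± 0.25), YEATS4, a reader of histone acetylation (-1.60 ± 0.29), and the nuclear receptor NR2C2 (-1.54 ± 0.26) were the other largest falls. PPFIA4 (2.30 ± 0.42), ADAM11 (1.95 ± 0.29), ST8SIA5 (1.88 ± 0.33), EFCAB12 (1.76 ± 0.24) and LPAR3 (1.58 ± 0.29) were the largest rises.

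Other genes did not pass this test. CYP1A1 was at 35.04 and 50.1 CPM at 2 h, PPP1R10 at 19.5 and 23.2 CPM, ETAA1 at 6.91 and 9.31 CPM and DDIT3 at 3.59 and 4.99 CPM, and the log2 differences from 2 to 6 h were 0.64 ± 0.26, 0.33 ± 0.20, -0.17 ± 0.24 and -0.29 ± 0.26 (edgeR adjusted p of 0.299, 0.532, 0.867 and 0.742). They were chosen after their values were seen, and a difference between 2 and 6 h was not detectable by this test. The 182 calls are fragile: the count was 0 without 2 h replicate 3 and without 6 h replicate 3, 2 without either of the other 2 h and 6 h libraries, 3 without either 0 h library, and 3 or 4 without an SPT6-AID library of 0 or 2 h. With fly totals it was also 0. These 3 counts of 0 from edgeR stood beside 1928, 1748 and 2502 genes at an unadjusted p under 0.05, and DESeq2 and limma-voom on the 12 libraries called 884 and 212.

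**Figure D4:**
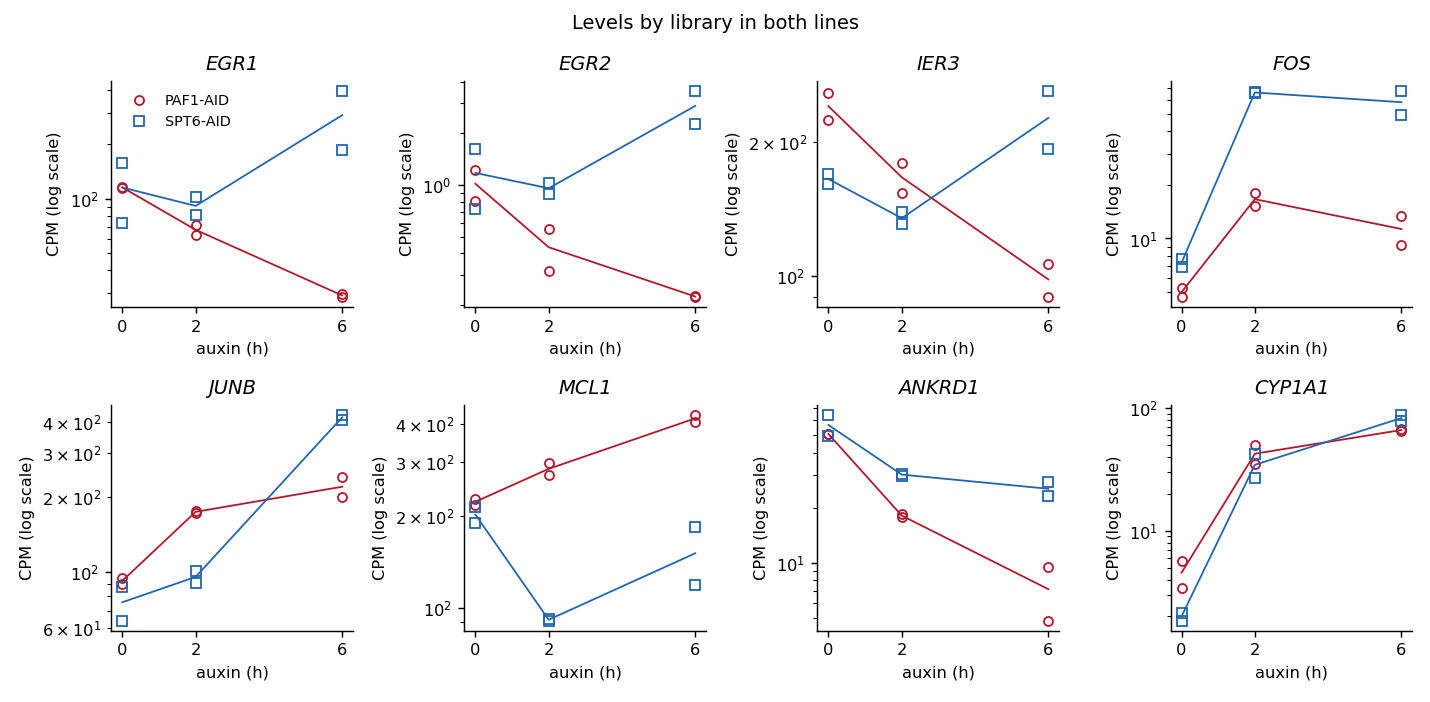
Level in CPM (log axis) of 8 genes at 0, 2 and 6 h of auxin in PAF1-AID (red circles) and SPT6-AID (blue squares) libraries, with lines through the means of 2 libraries. EGR1, EGR2 and IER3 go down with time in PAF1-AID cells and end above their 0 h mean in SPT6-AID cells, while MCL1 at 6 h is at 429 and 407 CPM in PAF1-AID and 184 and 119 CPM in SPT6-AID libraries.

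The same 6 h of auxin in SPT6-AID cells, which target the histone chaperone SPT6, gave a response with much in common. There 1821 genes were called higher (8.76%) and 3409 lower (16.4%), 25.2% in all. Both lines called 1549 genes, which is 68.3% of the PAF1 calls and 29.6% of the SPT6 calls, and 1516 of them had the same direction. Across the 20791 genes, which are not independent replicates, the log2 fold changes of the 2 lines had Pearson's r = 0.63, with no libraries in common. The difference between the responses, tested as an interaction, was called in 778 genes (3.74%): the PAF1-AID change lay above the SPT6-AID change in 649 and below it in 129. With fly totals the count was 16, of which 9 were above.

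Early response genes often differed between the lines. In 11 of the 34 the PAF1-AID change lay below the SPT6-AID change and in 0 above it, against 0.62% and 3.12% of all genes. EGR1, which fell in PAF1-AID cells, went from 157 and 73.6 CPM to 395 and 187 CPM in SPT6-AID cells, a rise of 1.33 ± 0.36 (edgeR adjusted p = 0.0216). The difference was -3.33 ± 0.52 (edgeR adjusted p = 0.0135). EGR2 differed by -3.47 ± 0.65 (edgeR adjusted p = 0.0215) and IER3, at 0.46 ± 0.16 in SPT6-AID cells, by -1.75 ± 0.23 (edgeR adjusted p = 0.00872). With fly totals the differences of EGR1 and EGR2 were of like size but were not called (edgeR adjusted p = 0.0898 and 0.108). FOS and JUNB rose in both lines but less in PAF1-AID cells: FOS by 1.18 against 2.998 (difference -1.82 ± 0.30, edgeR adjusted p = 0.0154) and JUNB by 1.25 against 2.46 (difference -1.21 ± 0.22, edgeR adjusted p = 0.0208). GADD45B (-1.02 ± 0.22) and IER5 (-1.21 ± 0.29) differed in the same direction.

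**Figure D5:**
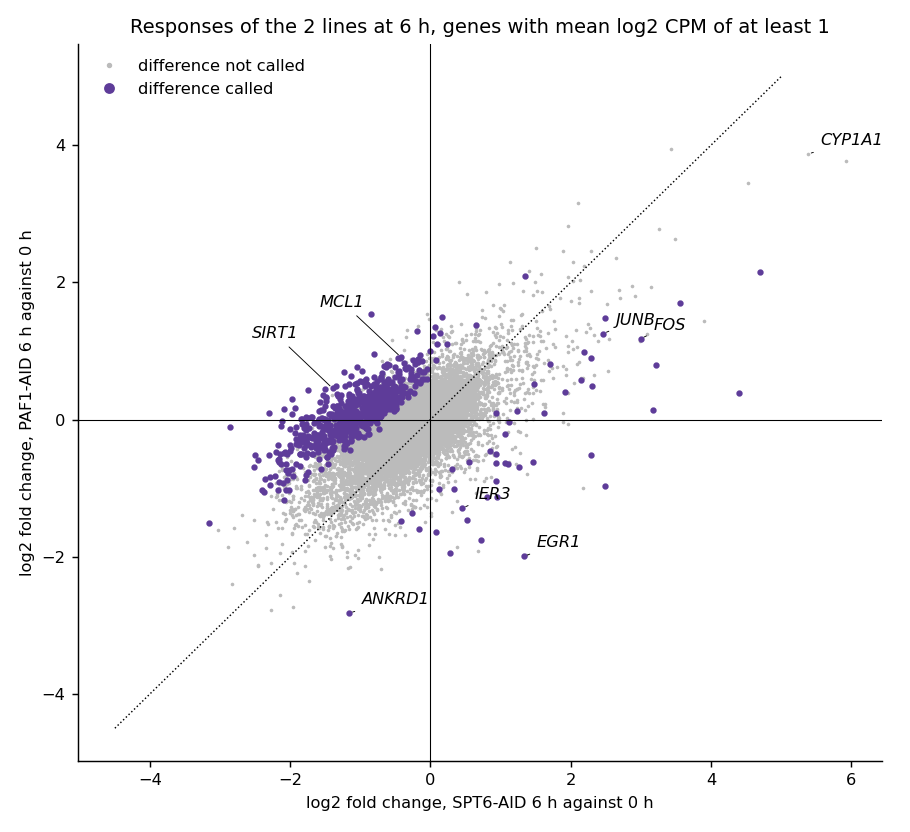
Log2 fold change at 6 h in SPT6-AID (horizontal) and PAF1-AID (vertical) cells for genes averaging 1 or more in log2 CPM, with genes whose difference was called in purple and a dotted line where both changes are equal. Most purple points lie above the line, and EGR1 at 1.33 and -1.99 and IER3 at 0.46 and -1.29 lie far below it.

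Further differences between the lines are given gene by gene. URB2 was at 0.10 ± 0.21 in PAF1-AID and -2.30 ± 0.22 in SPT6-AID cells, a difference of 2.39 ± 0.30 (edgeR adjusted p = 0.00784). MCL1 rose in PAF1-AID cells and was at -0.42 ± 0.18 in SPT6-AID cells (difference 1.33 ± 0.25, edgeR adjusted p = 0.0226). LEO1, a subunit of the PAF1 complex, was at -1.31 ± 0.16 in SPT6-AID cells (difference 1.47 ± 0.22, edgeR adjusted p = 0.0130). ANKRD1 fell further in PAF1-AID cells than in SPT6-AID cells, where it was at -1.16 ± 0.26 (difference -1.66 ± 0.37, edgeR adjusted p = 0.0372). At the far end of the scale were the U3 small nucleolar RNA genes: SNORD3A was at 0.39 ± 0.25 in PAF1-AID cells (edgeR adjusted p = 0.374) and rose by 4.39 in SPT6-AID cells, a difference of -4.002 ± 0.36 (edgeR adjusted p = 0.00300). Copies of these genes are nearly identical, so their split is uncertain.

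The HOX and homeobox list was called in both directions in SPT6-AID cells, 9 higher and 7 lower, against 0 and 14 in PAF1-AID cells. A difference between the lines was called for only 2 of the 40, 1 in each direction, and HOXC10 was the 1 with the lower PAF1-AID change (-1.32 ± 0.33 against 0.63 ± 0.32, difference -1.95 ± 0.45, edgeR adjusted p = 0.0442). So at the level of single genes these counts do not show that the 2 responses of the list differ.

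In 33 genes both lines were called with opposite signs, and the difference, which the choice by opposite signs favours, was called in all 33. The 5 that fell in PAF1-AID and rose in SPT6-AID cells were EGR1, EGR2, WNK4, FZD5 and AL121603.2. The other 28 rose in PAF1-AID cells by 0.39 to 0.95 and fell in SPT6-AID cells by 0.38 to 1.40 on the log2 scale. SIRT1, a deacetylase, was at 147 and 156 CPM at 0 h and 194 and 222 CPM at 6 h in PAF1-AID cells, a change of 0.45 ± 0.12 against -1.40 ± 0.13 in SPT6-AID cells. LUZP1 (0.95 ± 0.14 against -0.80 ± 0.14), the histone chaperone gene DAXX (0.55 ± 0.14 against -0.55 ± 0.14) and the telomere protein gene TERF2 (0.54 ± 0.15 against -0.64 ± 0.15) behaved alike and were chosen after their values were seen. With fly totals all 28 stayed above 0 in PAF1-AID cells, and 0 of them were called higher there. The difference was then called in 3 of the 33, PDE12, AC069544.1 and SIRT1. The 778 calls fell to 30 without PAF1-AID 6 h replicate 4, to 52 and 185 without PAF1-AID 0 h replicates 3 and 4, and to 234 without 6 h replicate 3. It was 418 and 420 without PAF1-AID 2 h replicates 3 and 4. Leaving out SPT6-AID libraries gave 172 and 60 without 0 h replicates 1 and 2, 479 without 2 h replicate 2 and 153 without 6 h replicate 2.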

How the data were processed

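Poly(A) RNA of 12 libraries (2 lines, 0, 2 and 6 h of auxin, 2 libraries each) was sequenced from a directional kit, per the labels' protocols. Per the submitters' processing notes the authors used cutadapt 1.14, STAR 2.7.5 and featureCounts 2.0.0 with GRCh38 and the fly genome. The annotation release and strand setting are not given in the sources used here. The deposited values are whole-number counts per gene for 60666 human and 17807 fly genes.

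Human counts were fitted with edgeR 4.0.16 (R 4.3.3): filterByExpr, TMM, 6 groups over the 12 libraries (6 residual degrees of freedom) and quasi-likelihood tests of 6 h against 0 h, 6 h against 2 h and the difference between lines, Benjamini-Hochberg adjusted over 20791 genes with a threshold of 0.05. SE is the fold change over the square root of F. Alternatives, 21 in all, used other scalings, filters, limma 3.58.1, DESeq2 1.42.0, a replicate block and each library left out. Positions and gene types come from GENCODE 29 on GRCh38, promoters from RefSeq on GRCh38.p14.

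The members were set by their labels, but the comparison and the 44 gene lists were chosen with earlier results of these data known. Genes named by rule are the subunits of the PAF1 complex, the 12 largest changes in each direction (mean log2 CPM of at least 1, libraries apart), the 5 most abundant calls in each direction, 4 members per list by p, and 5 per direction of each difference test. For 6 h against 2 h those 5 also had their 2 h and 6 h libraries apart. Others are named because they were called in a list or singled out in the text. Replicate libraries differed beyond sampling noise (chi-square per degree of freedom of 34.1 to 63.1), so each counts once. In simulated counts for 6 h against 0 h over 20791 genes, changes were put into a small set of genes, all averaging above 1 CPM. Of these edgeR recovered 2% of 1.5-fold, 34% of 2-fold, 84% of 4-fold and 96% of 8-fold changes, with 7 false among 115 calls. Far fewer genes were changed there than were called in the data, so recovery in the data may differ. Results for a few genes are not reported here.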

Additional observations from a re-analysis of the deposited data

Results flagged for a closer look

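These genes are set apart because the test of the difference itself, the PAF1-AID change at 6 h minus the SPT6-AID change at 6 h on the log2 scale, passed an adjusted p of 0.05 in edgeR's quasi-likelihood test over all genes. Small nucleolar RNA genes and their neighbours lay lowest, at -4.79 for SNORD3B-2, -4.64 for SNORD3B-1, -4.33 for AC009831.1, -4.002 for SNORD3A and -3.69 for AC007952.4. Early response genes followed, with -3.47 for EGR2, -3.33 for EGR1, -1.82 for FOS, -1.75 for IER3, -1.21 for IER5, -1.21 for JUNB and -1.02 for GADD45B. With fly totals as library sizes only 16 of the 778 differences over all genes were called. Of the genes in this section, EGR1, EGR2, AL121603.2, WNK4, FZD5, DAXX, TERF2 and LUZP1 did not pass then, and SIRT1 did. The difference was -1.95 for HOXC10, -1.66 for ANKRD1, -2.30 for AL121603.2, -1.82 for WNK4 and -1.17 for FZD5.

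Above 0, so that the PAF1-AID change was the higher one, lay LEO1 and RTF1 of the PAF1 complex at 1.47 and 1.01. Among factors for RNA and transcription the difference was 0.74 for NXF1, 0.85 for MLLT3, 1.54 for PAPOLG, 1.08 for SRSF5, 1.12 for SMG8 and 0.91 for SNHG17. Among other genes the difference was 1.03 for POLD3, 1.25 for FANCM, 1.10 for DAXX, 1.17 for TERF2, 1.85 for SIRT1 and 1.75 for LUZP1. It was 1.25 for BMP4, 1.45 for AXIN2, 1.33 for MCL1, 1.11 for CDX2, 1.14 for RORA, 1.04 for ATG14 and 0.78 for ATG16L1. The highest were URB2 at 2.39, AL606834.1 at 2.39, TNK1 at 2.27, KIAA1586 at 2.24 and DCAF16 at 2.18.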

How the results depend on the processing

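The 2267 calls at 6 h against 0 h stayed within 1.5 times under both other human scalings, fly totals, both filters, DESeq2, limma-voom and the PAF1-AID libraries alone, from 2018 to 3161. With a single library left out they ranged from 362 to 2439. The 182 calls at 6 h against 2 h became 79 with total human counts, 0 with fly totals, 663 with no filter, 884 with DESeq2's Wald test and 101 with the PAF1-AID libraries alone, and 0 to 267 with a library left out. The 778 calls for the difference from SPT6-AID became 223 with total human counts, 16 with fly totals, 1330 with no filter, 457 with a mean of at least 1 CPM and 1366 with DESeq2's Wald test, and 30 to 1061 with a library left out. The cause of these shifts was not tested. The labels give replicates the same numbers in each group of a line. With the replicate number as a block the 3 counts were 7958, 4172 and 4513. Deviations of PAF1-AID libraries with the same number had correlations of 0.49 to 0.53, but with only 2 numbers a line and no label on what a number marks, the pairing is not established. Under the block 28 of the 190 genes named by rule moved past the threshold, and 0 left it. Of 153 genes named by rule and called at 6 h against 0 h, 66 kept their direction and their side of the threshold in every setting run. Human reads per fly read depend on how fly material was added, which is not given in the sources used here.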
